A study of Mus musculus with 2 samples.

Results

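The clustered histone genes are the rows of the deposited matrices whose symbol starts with Hist1h, Hist2h, Hist3h or Hist4h, 67 of the 32285 genes listed. Of these 67, 6 encode the linker histone H1, 18 encode H2A, 18 H2B, 12 H3 and 13 H4. The Hist1 cluster holds 54 of them on chromosome 13 (mm10/GRCm38, chr13:21715763-23934851, 2219.1 kb). The Hist2 cluster holds 10 (chr3:96219865-96270132), the Hist3 cluster 2 (chr11:58948920-58956830), and Hist4 is the single gene Hist4h4 (chr6:136801553-136804415). Their levels were compared between cycling and other T and NK cells sorted from mouse tumours.

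As background, DNA wraps around octamers of the core histones H2A, H2B, H3 and H4, and linker histone H1 binds where the DNA enters and leaves. The clustered genes supply most new histone during S phase. Their messages usually lack a poly(A) tail and end in a short stem-loop that is bound by the protein SLBP, and they are degraded when DNA synthesis stops. A few clustered genes are known also to make polyadenylated messages outside S phase, and unclustered genes such as H2afz encode replacement variants that are made through the cycle.

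The study asks how gene expression differs between wild-type and Dapl1-deficient T cells in tumours. Cells positive for the leukocyte antigen CD45 and the T cell antigen CD90.2 were sorted from tumours and sequenced as 2 single-cell libraries with 10x Genomics 3′ chemistry. One library is labelled WT and the other Dapl1-KO, and both are from C57BL/6 mice. Mouse age, the tumour, how Dapl1 was deleted and how many animals entered each library are not given in the sources used here. With 1 library per label no test across samples was possible, so each ratio describes these libraries, and the 95% intervals given are exact intervals that cover counting error only.

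Stem-loops are shown first because they are the feature that sets these messages apart and because results below are grouped by them. A 16-base stem-loop with a 4-base loop was found in the transcripts of 46 of the 67 genes (GENCODE M21, GRCm38), and 21 had none in their listed transcript. Capitals mark the stem and lower case the loop, 5′ to 3′. The first form below was found in 26 genes of the H1, H2A, H2B and H3 families. The second was found in 6 genes, the third in 7 genes that all encode H4, and the last 2 forms in 2 genes each, also H4.
Hist1h2ap: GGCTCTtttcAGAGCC
Hist1h3c: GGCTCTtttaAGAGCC
Hist1h4d: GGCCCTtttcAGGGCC
Hist1h4i: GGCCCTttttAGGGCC
Hist1h4b: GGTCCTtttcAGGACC

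Promoters are shown for Hist1h2ap, the most abundant member in cycling CD8 cells, and for the 3 most abundant H1 genes, whose levels differed between cycling and other cells to very different degrees. RefSeq promoter windows (GRCm38.p6, 250 bases before to 50 after the start) matched 62 of the 67 genes, in 63 windows. Windows were searched on both strands for TATAAA, for CCAAT (the motif of the factor NF-Y), for AAACACA (an element known from H1 promoters) and for ATTTGCAT (the octamer known from H2B promoters). Capitals mark matches, with ATTGG being CCAAT on the other strand, in the 120 bases before the start. Hist1h2ap lies at chr13:21833476-21833595 (minus strand), Hist1h1b at chr13:21780626-21780745 (minus), Hist1h1e at chr13:23622559-23622678 (minus) and Hist1h1c at chr13:23738687-23738806 (plus).
Hist1h2ap: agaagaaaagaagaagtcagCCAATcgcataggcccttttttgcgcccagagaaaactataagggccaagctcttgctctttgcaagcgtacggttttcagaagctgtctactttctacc
Hist1h1b: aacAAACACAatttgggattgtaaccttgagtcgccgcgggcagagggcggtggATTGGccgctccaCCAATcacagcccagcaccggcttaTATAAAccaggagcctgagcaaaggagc
Hist1h1e: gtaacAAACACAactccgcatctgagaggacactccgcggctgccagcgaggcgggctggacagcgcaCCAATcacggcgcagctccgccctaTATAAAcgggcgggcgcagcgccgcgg
Hist1h1c: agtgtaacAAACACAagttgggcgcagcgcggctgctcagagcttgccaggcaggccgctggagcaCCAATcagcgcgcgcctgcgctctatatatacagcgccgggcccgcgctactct

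TATAAA was present in 35 of the 63 histone windows (55.6%) and in 13.6% of the 32851 promoters in the table. CCAAT was present in 54 (85.7%, against 37.4% of all promoters), which took in every H1, H2A, H2B and H3 window but 3 of 12 H4 windows. AAACACA was present in 9 (14.3%, against 7.18%), of which 5 were among the 6 H1 windows. ATTTGCAT was present in 14 (22.2%, against 1.74%), in 7 of 18 H2A and 7 of 17 H2B windows and in no H1, H3 or H4 window. These matches describe letters in the windows and were not tied to any measured binding.

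The libraries shared 13132 barcodes, of which only the copy with at least 2 times the UMIs was kept. After filters, 9087 cells remained under the WT label and 10088 under the Dapl1-KO label, with median totals of 7412 and 8463.5 UMIs. Dapl1 was counted in cycling CD8 cells of both libraries, at 10.2 CPM (UMIs per 1000000 UMIs of the group) in the library labelled WT (326 UMIs) and 9.48 in the library labelled Dapl1-KO (488 UMIs). In other CD8 cells it was at 63.4 and 50.8 CPM, so its level does not separate the labels, and 3′ tags may lie outside the deleted part. Cells with Y-linked but no Xist UMIs made up most cycling CD8 cells of the library labelled Dapl1-KO (1313 of 1446), and cells with Xist but no Y-linked UMIs most of those labelled WT (666 of 825), so sex and label move together. All 4 melanocytic markers looked for (Pmel, Mlana, Dct and Tyrp1) were counted in the CD8 gate, at a sum of 282.5 CPM in cycling and 108.7 in other cells labelled WT and of 1002.6 and 145.3 CPM in those labelled Dapl1-KO. In cycling regulatory T cells their sum was 1391.8 CPM under the WT label and 8.26 under the Dapl1-KO label.

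Cells were gated by marker genes. The CD8 gate held 4408 and 5464 cells (WT and Dapl1-KO labels, in that order throughout), the regulatory T gate 640 and 731, the CD4 gate 571 and 563 and the NK gate 389 and 489. Cells with both Mki67 and Top2a counted were called cycling, which took 825 (18.7%) and 1446 (26.5%) of CD8 cells, 108 (16.9%) and 124 (17.0%) of regulatory T cells, 36 and 30 CD4 cells, and 6 and 14 NK cells. Both marker genes were left out of the counts of genes higher or lower between states or libraries. Cycling cells held more UMIs, with medians of 33874 and 29280 in CD8 cells against 8424 and 8877 in other CD8 cells, so levels are given as CPM. Each UMI marks 1 message at its 3′ end, so levels carry no length scale. Because priming uses poly(A), only part of the stem-loop messages is captured, and that part was not measured for any gene.

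Together the clustered histone genes were several times higher in cycling than in other cells of every class, in both libraries. In CD8 cells labelled WT their sum was 4474.9 CPM (95% interval 4451.8 to 4498.0) in cycling and 1413.8 CPM (1401.8 to 1425.8) in other cells, a 3.17-fold ratio. In CD8 cells labelled Dapl1-KO it was 3454.4 CPM (3438.4 to 3470.5) and 1082.7 CPM (1073.1 to 1092.3), a 3.19-fold ratio. The ratios were thus alike in both libraries while both levels were lower under the Dapl1-KO label.

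Regulatory T cells reached 6022.7 CPM in cycling against 1603.6 in other cells labelled WT (3.76-fold) and 5949.6 against 1169.9 CPM labelled Dapl1-KO (5.09-fold). CD4 cells reached 8586.1 against 1598.2 CPM (5.37-fold) and 5914.0 against 1172.5 CPM (5.04-fold). NK cells reached 6939.5 against 2014.9 CPM (3.44-fold) and 8452.0 against 1635.7 CPM (5.17-fold), from only 6 and 14 cycling cells. The tenth of cycling NK cells with most histone UMIs held 47.8% and 50% of them, and the median share of a cell's UMIs was 0.357% against 0.188% and 0.660% against 0.141%. When either Mki67 or Top2a was enough to call a cell cycling, the NK log2 ratios were 0.41 and 0.84 instead of 1.78 and 2.37. Cycling CD8 cells thus had the lowest summed level of the 4 cycling classes in each library. They also held the most UMIs per cell, with medians of 33874 and 29280. The other cycling classes had medians of 14942.5 to 23428 and of 15858 to 20125. A cell with more UMIs shows both Mki67 and Top2a more readily, and the part of depth in this order was not tested. When every cell was thinned to 3000 UMIs before gating, the log2 ratio in CD8 cells was 1.93 and 1.90 instead of 1.66 and 1.67. The limit set on Scrublet scores had removed 8.13% and 13.8% of the cycling CD8 cells as likely doublets, and with these kept the ratio was 1.61 and 1.63. Without cells rich in tumour or macrophage markers it was 1.71 and 1.74.

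**Figure D1:**
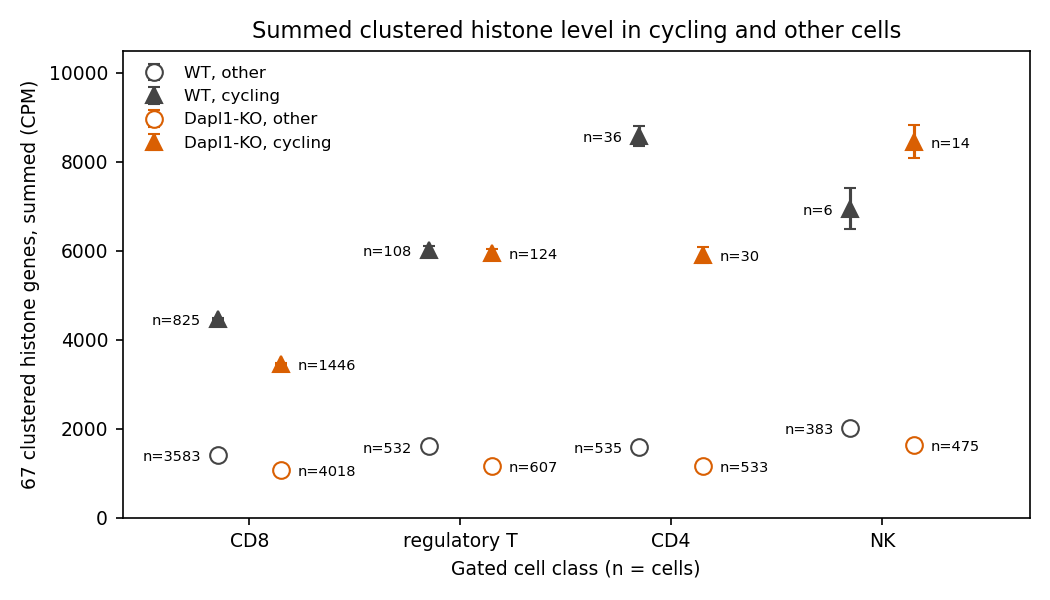
Summed level of the 67 clustered histone genes (CPM) in CD8, regulatory T (Treg), CD4 and NK cells of each library, with triangles for cycling and circles for other cells, bars for 95% counting intervals and the number of cells given. Cycling cells lie above other cells in all 4 classes of both libraries, from 3454.4 to 8586.1 CPM against 1082.7 to 2014.9 CPM.

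The difference was also present in single cells. The median share of a cell's UMIs that came from clustered histone genes was 0.354% in cycling and 0.124% in other CD8 cells labelled WT, and 0.290% and 0.0918% in those labelled Dapl1-KO. After thinning to 3000 UMIs a cycling CD8 cell showed a median of 6 different clustered histone genes in both libraries, and other CD8 cells showed 3 and 2. Without thinning the medians were 26 against 6 and 23 against 5. The signal was spread over many cells, since the tenth of cycling CD8 cells with most histone UMIs held 29.6% and 27.9% of them.

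Genes were compared 1 by 1 where the mean of the cycling and other level was at least 5 CPM, and a 2-fold ratio was the limit for calling a gene higher or lower. In CD8 cells 40 and 38 of the 67 members entered, and the rest were too low. Some entered only because they were high in cycling cells (10 and 14 members), so the members already at 5 CPM or more in other cells are the fairer base. Of those, 19 of 30 and 15 of 24 were at least 2-fold higher in cycling cells, where 6.87% and 5.32% of all genes meeting the same limit were. Over all members that entered, 28 of 40 and 28 of 38 were at least 2-fold higher, beside 9.67% and 8.02% of all genes, and none was at least 2-fold lower, beside 4.06% and 3.43%. Of the 37 members that entered in both libraries, 25 were at least 2-fold higher in both and 12 were not.

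**Figure D2:**
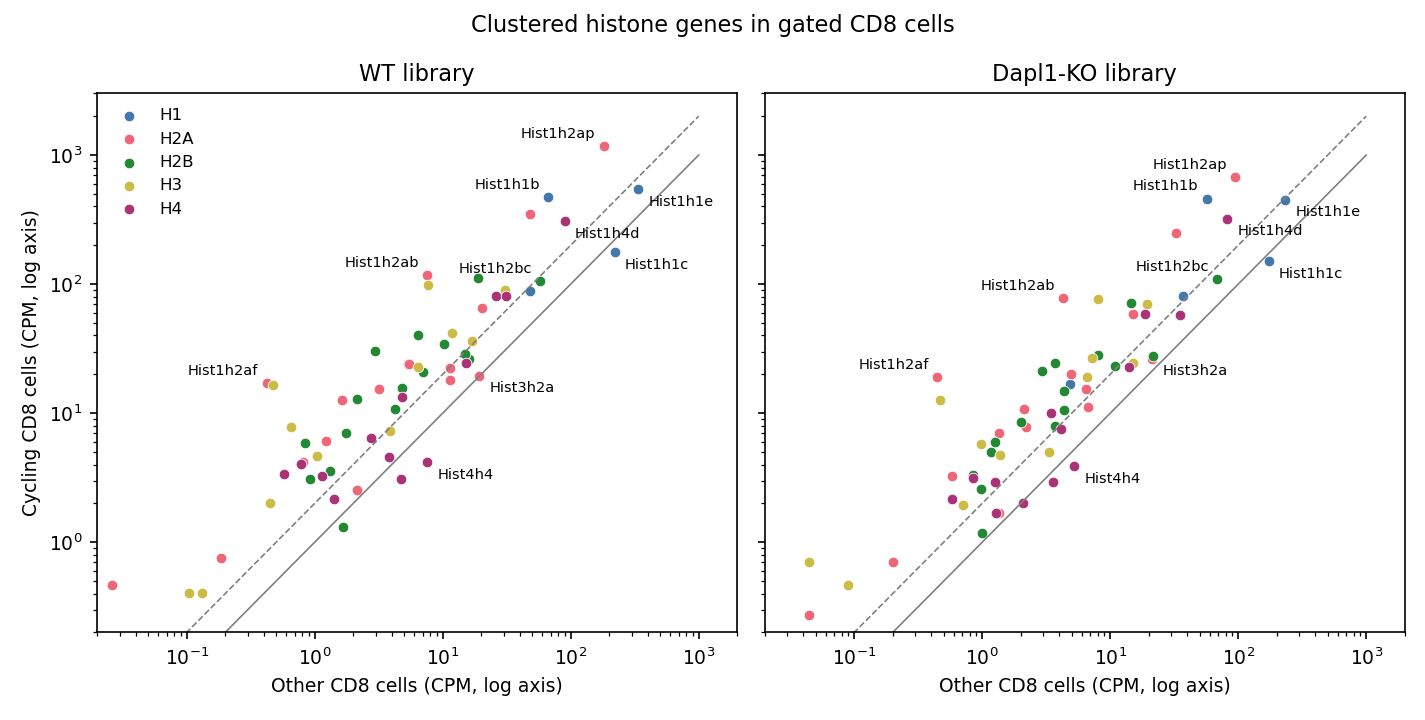
Level of each clustered histone gene counted in both states in other (horizontal axis) and cycling (vertical axis) CD8 cells of each library, in CPM on log axes, with a solid line for equal levels and a dashed line for a 2-fold ratio. Hist1h2ap is the highest in cycling cells (1173.8 and 673.9 CPM), and Hist1h1c lies below the line of equal levels in both libraries.

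The H1 genes held the most abundant histone messages of non-cycling cells, and they split into very different ratios. Hist1h1b, the H1 gene most tied to dividing cells, was at 470.5 CPM in cycling and 66.5 in other CD8 cells labelled WT, a log2 ratio of 2.82 (2.76 to 2.88). In the library labelled Dapl1-KO it was at 458.3 and 56.98 CPM, a log2 ratio of 3.01 (2.95 to 3.07). Hist1h1e was the highest H1 gene in other cells of both libraries, at 544.6 against 336.3 CPM and 452.2 against 232.6 CPM, but its log2 ratio was only 0.70 (0.66 to 0.73) and 0.96 (0.93 to 0.99). Hist1h1d was intermediate in level, at 88.5 against 48.46 CPM and 80.27 against 36.81 CPM.

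Hist1h1c was the 1 H1 gene that entered with a lower level in cycling cells, at 176.7 against 220.5 CPM and 150.9 against 172.8 CPM. Its log2 ratio was -0.32 (-0.37 to -0.27) and -0.19 (-0.24 to -0.15). It is among the genes known to make polyadenylated messages. Hist1h1a, picked here after its values were seen, was a low H1 gene with a clear ratio, at 23.86 against 5.34 CPM and 16.87 against 4.85 CPM. Hist1h1b and Hist1h1e both hold the exact letters TATAAA in the windows printed above, and Hist1h1c reads tatatata at a similar place. A link between these letters and the ratios was not tested. The H1 genes as a family were 1.93-fold and 2.30-fold higher in cycling CD8 cells, the smallest ratio of the 5 families in both libraries. The last 150 bases of Hist1h1e (chr13:23620629-23622558) are shared in full with Hist1h2be (chr13:23583670-23621124), which overlaps it on the same strand, so the split of reads between those genes is uncertain.

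The H2A genes showed the largest family ratio in CD8 cells, 5.88-fold and 6.10-fold. Hist1h2ap (chr13:21833026-21833507) alone reached 1173.8 CPM in cycling and 181.1 in other cells labelled WT, a log2 ratio of 2.70 (2.66 to 2.73). Under the Dapl1-KO label it reached 673.9 and 94.88 CPM, a log2 ratio of 2.83 (2.78 to 2.88). It was the member with most UMIs in cycling cells, and a full match to other genes over its last 150 bases makes its level uncertain as that of 1 gene.

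Hist1h2ae was at 348.6 against 48.22 CPM and 250.6 against 32.51 CPM, a ratio similar to that of Hist1h2ap (log2 2.85 and 2.95). Hist1h2ab was nearly absent outside cycling cells, at 117 against 7.60 CPM and 78.28 against 4.30 CPM, which is a 15.4-fold and 18.2-fold ratio. Hist1h2af, picked after its values were seen, had the largest ratio of all members that entered, at 17.17 against 0.421 CPM (40.8-fold) and 19.03 against 0.445 CPM (42.7-fold). A gene that low in other cells could reach the 5 CPM limit only by being far higher in cycling cells, so a large ratio was needed for it to enter. Hist2h2ac, the most abundant Hist2 member, was at 65.7 against 20.25 CPM and 59.12 against 15.1 CPM. H2A genes under the 2-fold limit in at least 1 library were Hist1h2ac, at 18.11 against 11.46 and 11.14 against 6.66 CPM, and Hist2h2aa1, at 22.36 against 11.39 and 15.28 against 6.50 CPM. Hist3h2a, a Hist3 gene known for polyadenylated messages, was at 19.58 against 19.25 CPM (log2 0.02, -0.13 to 0.18) and at 26.47 against 21.11 CPM (log2 0.33, 0.21 to 0.45).

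Shares of cells gave the same order for H2A genes. After thinning to 3000 UMIs, Hist1h2ap was counted in 72.9% of cycling CD8 cells (601 of 824) and 35.8% of other CD8 cells (1244 of 3476) labelled WT, and in 64.7% and 21.6% of those labelled Dapl1-KO. Hist1h2ab was counted in 26.9% against 2.22% and in 20.2% against 1.03%. Hist1h2af was counted in 5.83% against 0.115% and in 6.09% against 0.0775%. Without thinning, the Hist1h2ap shares were 95.8% against 62.9% and 89.6% against 44.4%. For contrast, thinned shares of the H1 gene Hist1h1c were 40.8% against 43.4% and 36.8% against 38.8%. Free RNA in droplets can add UMIs to any class, and no class here lacks these genes, so its part in the low shares was not tested.

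The H2B genes were 3.01-fold and 2.44-fold higher in cycling CD8 cells as a family. Hist1h2bj was the H2B gene with the highest cycling level among those past the 2-fold limit, at 112.2 against 18.77 CPM (log2 2.58) and 71.91 against 14.45 CPM (log2 2.32). Hist1h2bc, known for polyadenylated messages, was about as abundant in cycling cells but much higher in the others, at 104.8 against 57.9 CPM and 108.7 against 68.25 CPM. Its log2 ratio was 0.86 (0.78 to 0.93) and 0.67 (0.61 to 0.74). Hist3h2ba, the Hist3 gene with the higher level in cycling CD8 cells and also known for polyadenylated messages, was at 26.36 against 16.09 CPM and 27.62 against 21.47 CPM. Hist1h2be was close to the limit in both libraries, with log2 ratios of 0.93 and 1.08.

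The H3 genes were 4.09-fold and 3.93-fold higher as a family. Hist1h3c, the most abundant H3 gene, was at 98.04 against 7.68 CPM (12.8-fold) and 77.31 against 7.99 CPM (9.67-fold). Hist1h3e was higher in other cells and so had a smaller ratio, at 89.53 against 30.5 CPM and 69.54 against 19.26 CPM. Hist1h3b, chosen after its values were seen, was at 16.48 against 0.473 CPM and 12.63 against 0.468 CPM, ratios of 34.8-fold and 27.0-fold. Like Hist1h2af it entered only through cycling cells, which at so low a level in other cells needs a large ratio. Hist1h3a fell on different sides of the 2-fold limit, at 36.34 against 17.09 CPM (2.13-fold) and 24.27 against 14.99 CPM (1.62-fold). Hist2h3b entered under the WT label alone, with a log2 ratio of 0.92.

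The H4 genes were 2.83-fold and 2.89-fold higher as a family. Hist1h4d carried most of this, at 307 against 89.61 CPM (log2 1.78, 1.72 to 1.83) and 321.7 against 81.9 CPM (log2 1.97, 1.92 to 2.03). Hist1h4i was at 80.3 against 31.47 CPM (2.55-fold) and 57.39 against 35.05 CPM (1.64-fold). Hist1h4c was under the limit in both libraries, at 24.27 against 15.15 CPM and 22.8 against 13.98 CPM. Hist4h4, the single Hist4 gene, was lower in cycling cells, at 4.19 against 7.52 CPM (log2 -0.84, -1.15 to -0.54) and at 3.87 against 5.21 CPM (log2 -0.43), the second pair being too low to enter. Hist1h4b entered under the Dapl1-KO label alone, with a log2 ratio of 0.88.

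At the values next to the 2-fold limit in CD8 cells labelled WT, Hist1h3a lay just above it (2.13-fold) and Hist2h2aa1 just below it (1.96-fold). Under the Dapl1-KO label Hist1h2be lay just above it (2.12-fold) and Hist1h1e just below it (1.94-fold). Of the 3 testis genes in the set, Hist1h2aa and Hist1h2ba had no UMI in any gated cell, where a count of 0 allows up to 0.0938 and 0.0583 CPM in cycling CD8 cells. Hist1h1t had between 1 and 10 UMIs over all gated cells.

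The makeup of the histone messages therefore differed between states. In other CD8 cells H1 genes gave 47.9% and 46.6% of all clustered histone UMIs and H2A genes 22.2% and 17.9%. In cycling CD8 cells H1 genes gave 29.2% and 33.5%, and H2A genes 41.3% and 34.3%. Hist1h2ap alone was 12.8% and 8.76% of the histone UMIs in other cells and 26.2% and 19.5% in cycling cells. The H1 share was also lower in cycling cells of the other classes, with 54.6% against 26.8% and 51.8% against 30.0% in regulatory T cells, 48.3% against 29.0% and 52.6% against 32.9% in CD4 cells, and 55.7% against 25.6% and 56.0% against 27.3% in NK cells. Because shares sum to the whole, a lower H1 share is not a lower H1 level.

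The 5 genes known to make polyadenylated messages (Hist1h1c, Hist1h2bc, Hist2h2be, Hist3h2a and Hist3h2ba) had a sum that was nearly the same in both states of CD8 cells. It was 1.04-fold (log2 0.06, 0.02 to 0.10) and 1.11-fold (log2 0.15, 0.11 to 0.18) that of other cells. They gave 22.3% and 26.3% of histone UMIs in other CD8 cells and 7.35% and 9.12% in cycling ones. The flat sum joins unlike genes, since Hist1h1c was lower in cycling CD8 cells while Hist1h2bc and Hist3h2ba were higher. Elsewhere the log2 ratio of the sum was -0.40 and 0.59 in regulatory T cells, 0.645 and 0.08 in CD4 cells and -0.34 and 0.505 in NK cells. This list of 5 was chosen with earlier results of these data known. None of the 4 of these genes that entered was at least 2-fold higher in CD8 cells of either library. Of all genes 9.67% and 8.02% were, so this count does not set the 4 apart from genes at large.

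The length of message after the stem-loop, in the listed transcript, was compared with the ratio. A message cut at the stem-loop leaves few bases after it, and a long stretch is a listed transcript that runs on. The stretch was 3 bases in Hist1h2ap and 11 in Hist1h2ab, but 840 in Hist1h1c, 1153 in Hist1h1e, 1643 in Hist3h2a and 2445 in Hist4h4. Of the 46 genes with a stem-loop, 23 had at most 100 bases after it and 23 had more, with the limit of 100 set after the values were seen. Among the short ones that entered, 11 of 12 and 11 of 13 were at least 2-fold higher in cycling CD8 cells, with median log2 ratios of 2.67 and 2.34. The share over all genes that entered was 9.67% and 8.02%. Among the long ones 8 of 17 and 9 of 16 were, with medians of 0.93 and 1.09. Genes with no stem-loop in the listed transcript had 9 of 11 and 8 of 9, with medians of 1.83 and 1.80, and Hist1h1b and Hist1h2af were among them. These counts describe the listed transcripts and not the ends that were made in these cells, and the groups include members that entered only through cycling cells. Examples under the WT label are Hist1h2bm and Hist1h2ag among the short and Hist1h2bh among the long, at 2.97, 1.63 and 2.13 CPM in other cells. A member that low had to be over 2-fold higher to enter.

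**Figure D3:**
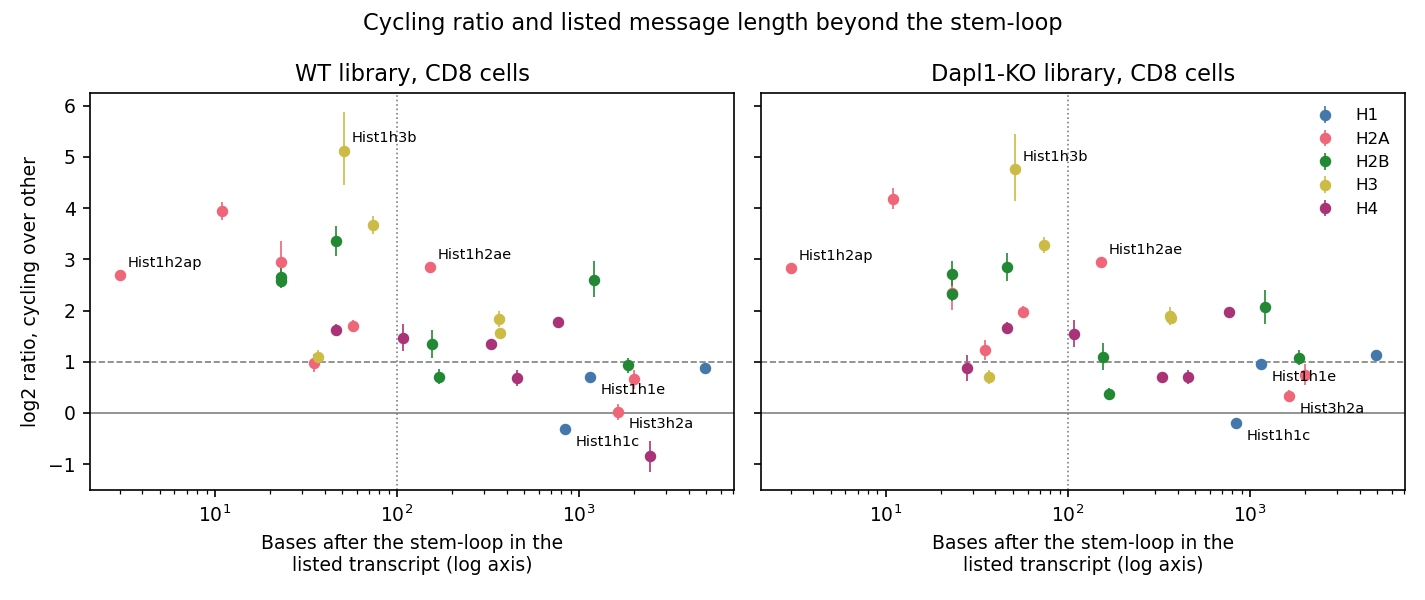
Bases of the listed transcript after the stem-loop (horizontal, log axis) against the log2 ratio of cycling over other CD8 cells (vertical) for members with a stem-loop that entered, in each library, with dots coloured by family, bars for 95% counting intervals, a dotted line at 100 bases and a dashed line at a 2-fold ratio. Members with at most 100 bases lie mostly above the dashed line (11 of 12 and 11 of 13), and those with more lie on both sides (8 of 17 and 9 of 16 above). Of all genes that entered, 9.67% and 8.02% were at least 2-fold higher.

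Many members are near copies of one another. Of the 67 genes, 33 had over 50% of their 50-base windows in the transcript of another gene, and Hist1h2ap had 93.1%. Hist1h1a, Hist1h1b, Hist1h1t and Hist2h2be had no shared window. Levels of single genes with shared windows are uncertain where counting could split or drop such reads, while Hist1h1b is free of this limit and showed one of the larger ratios.

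In the other classes most members that entered were also higher in cycling cells. Among members already at 5 CPM or more in other cells, 25 of 30 and 22 of 26 were at least 2-fold higher in regulatory T cells, beside 6.39% and 5.19% of all such genes. In CD4 cells 30 of 32 and 20 of 27 were, beside 8.51% and 9.80%, and in NK cells 23 of 32 and 22 of 29, beside 16.9% and 10.3%. Over all members that entered, 38 of 43 and 39 of 43 were at least 2-fold higher in regulatory T cells (9.78% and 7.85% of all genes), 47 of 49 and 36 of 44 in CD4 cells (12% and 13.8%), and 36 of 46 and 39 of 46 in NK cells (23.3% and 16.3%). Members at least 2-fold lower were Hist3h2a in regulatory T and NK cells labelled WT (8.13% and 10.4% of all genes) and Hist4h4 in CD4 cells labelled WT (9.63%). The first rested on 32 UMIs in cycling cells (log2 -1.60, -2.20 to -1.03). The others rested on 1 and 3 UMIs, with intervals from -6.77 to 1.09 and from -3.55 to 0.46 that include no difference. None was under the Dapl1-KO label, where 6.48%, 14.6% and 9.47% of all genes were in regulatory T, CD4 and NK cells. Of the 36 members that entered in all 8 comparisons, 22 were at least 2-fold higher in all 8, beside 3.41% of all genes that entered in all 8. Some of these, such as Hist1h2af and Hist1h3b, entered only through cycling cells. Of the 21 members at 5 CPM or more in other cells in all 8, 9 were at least 2-fold higher in all 8, beside 1.55% of all such genes: Hist1h1b, Hist1h2ae, Hist1h2ap, Hist1h2bj, Hist1h3e, Hist1h3f, Hist1h4d, Hist1h4h and Hist2h2ac.

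Hist1h2ap kept a high ratio in each class. In regulatory T cells it was at 1630.7 against 166.6 CPM (log2 3.29) and 1300.0 against 89.85 CPM (log2 3.86). In CD4 cells it was at 2149.9 against 170.2 CPM (log2 3.66) and 1292.2 against 77.67 CPM (log2 4.06). In NK cells it was at 1934.0 against 195 CPM (log2 3.31) and 1889.6 against 93.96 CPM (log2 4.33). Other cells of the 4 classes thus held it in a narrow range within each library, from 166.6 to 195 CPM and from 77.67 to 94.88 CPM, while cycling cells ranged more widely.

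Hist1h1b and Hist1h1e stayed apart in every class. The log2 ratio of Hist1h1b was 2.83 and 3.60 in regulatory T cells, 3.57 and 4.03 in CD4 cells, and 3.04 and 3.61 in NK cells. That of Hist1h1e was 0.29 and 0.97, 1.24 and 1.21, and 0.11 and 0.80 in the same order. H2A had the largest sum ratio named above for CD8 cells, and elsewhere its log2 ratio was 3.11 and 3.52 in regulatory T cells, 3.39 and 3.63 in CD4 cells and 3.08 and 3.99 in NK cells.

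Cycling CD8 cells were ordered by the share of G1/S genes among the UMIs of 20 G1/S and 20 G2 and mitosis genes, and cut into 3 equal bins. The bins are ranges and not cell types, and 240 and 409 cells lay within 5 percentage points of a cut. The summed histone level was lowest in the bin richest in G1/S genes. It was 2756.4 CPM there, 4993.6 in the middle bin and 5463.2 in the bin richest in G2 and mitosis genes under the WT label (275 cells each). Under the Dapl1-KO label it was 1996.4, 3693.3 and 4554.7 CPM (481 cells each). In both libraries the larger step lay between the G1/S-rich and the middle bin.

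Between the G1/S-rich and the middle bin, 43 of 44 and 38 of 41 members that entered were at least 25% higher in the middle bin, beside 13.2% and 5.56% of all genes outside the lists that define the bins. None was at least 20% lower, beside 4.35% and 6.06%. Their median log2 ratio was 0.91 in both libraries. Hist1h2ap went from 680.4 to 1342.0 CPM and from 359.4 to 768.9 CPM, and Hist1h1b from 304.4 to 550.4 CPM and from 269.5 to 515.6 CPM. Between the middle and the G2/M-rich bin, 10 of 47 and 18 of 45 passed the same limit upwards (6.23% and 8.41% of all genes), 3 and 1 downwards (9.73% and 6.77%), and the medians were 0.12 and 0.25. Hist1h2ap reached 1438.7 and 863.8 CPM in the G2/M-rich bin and Hist1h1b 537 and 572 CPM.

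From the middle to the G2/M-rich bin, all 4 genes known for polyadenylated messages that entered passed the same upward limit in both libraries. So did 6 of 43 and 14 of 41 remaining members, and 6.23% and 8.41% of all genes. The list these 4 come from was chosen with earlier results of these data known. Hist1h2bc was at 43.28, 87.39 and 175.2 CPM from the G1/S-rich to the G2/M-rich bin under the WT label and at 39.57, 61.06 and 225.5 CPM under the Dapl1-KO label. Hist3h2a was at 10.44, 17.33 and 29.71 CPM and at 11.55, 23.17 and 44.03 CPM. Hist1h1c was at 120, 175.5 and 227.2 CPM and at 99.84, 127.6 and 223.8 CPM. Median log2 ratios of the 4 were 0.74 and 1.06, against 0.12 and 0.24 for the remaining members. Hist1h1a, chosen after its values were seen, went the other way from the middle to the G2/M-rich bin, from 30.74 to 20.73 CPM and from 21.5 to 15.77 CPM.

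Slbp, which encodes the stem-loop binding protein, was highest in the middle bin, at 102.8, 121.9 and 77.04 CPM and at 135.9, 140.8 and 96.71 CPM from the G1/S-rich to the G2/M-rich bin. Median UMIs per cell were 32603, 34186 and 35461 and, under the Dapl1-KO label, 27238, 32901 and 28601. Mki67 went from 123.6 to 267.3 and 317.2 CPM and from 151 to 300 and 335.2 CPM. The part of cell size and depth in these values was not tested.

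**Figure D4:**
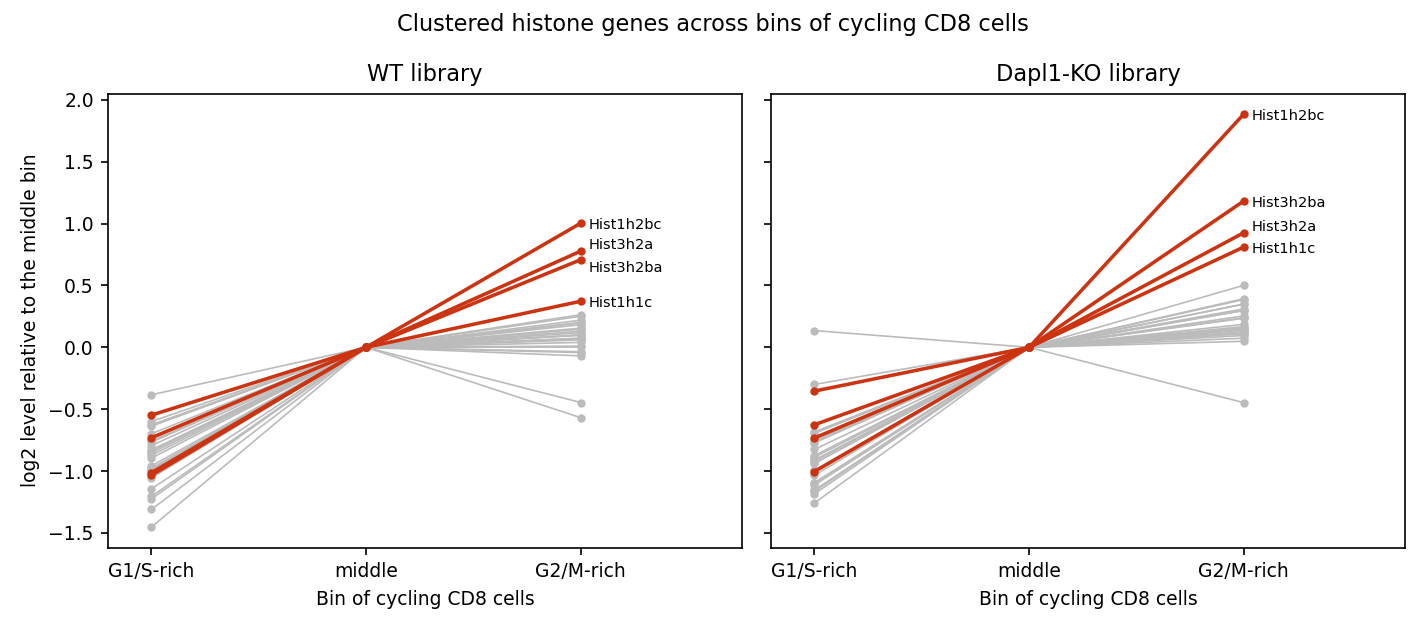
Level of the most abundant clustered histone genes in 3 equal bins of cycling CD8 cells of each library, relative to the middle bin (log2), with genes known for polyadenylated messages in red and named. Most members drawn are lower in the G1/S-rich bin and change less between the middle and G2/M-rich bins. Hist1h2bc, Hist3h2a, Hist3h2ba and Hist1h1c are higher in the G2/M-rich bin. So are some other members, such as Hist1h2bg (log2 0.67 and 0.78), which is too low in level to be drawn.

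Other genes of histone supply gave a mixed picture in CD8 cells. Of 11 unclustered histone genes, 4 of the 10 that entered were at least 2-fold higher in cycling cells labelled WT and 3 of 9 in those labelled Dapl1-KO. The share over all genes that entered was 9.67% and 8.02%. H2afx, the variant known from DNA damage marking, was at 111 against 22.35 CPM and 159.7 against 29.79 CPM. H2afz, which encodes a replacement H2A, was at 1636.5 against 628.7 CPM (log2 1.38) and 1623.0 against 670.3 CPM (log2 1.28), a level above that of any clustered gene in CPM. Cenpa, the H3 variant of centromeres, was at 315.5 against 128.8 CPM and 314.3 against 139.7 CPM.

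Of 12 genes of histone message transcription, processing and decay, 11 entered, and 1 and 0 were at least 2-fold higher. That is near the share over all genes (9.67% and 8.02%). Slbp was at 100.3 against 65.24 CPM (log2 0.62) and 124.7 against 72.77 CPM (log2 0.78), and the largest ratio was that of Cpsf2, part of the cleavage complex (log2 1.19 and 0.98). Of 15 histone chaperones and assembly factors 10 and 7 were at least 2-fold higher, with log2 ratios of 3.17 and 2.93 for Asf1b and 2.45 and 2.18 for Chaf1a. All but 1 of 20 G1/S genes were (19 in both), with medians of 2.12 and 1.83 and with Cdc6 at 4.34 and 3.45, and so were all 20 G2 and mitosis genes in both, with medians of 3.84 and 3.59. The clustered histones that entered had medians of 1.71 and 1.79, and all genes that entered had medians of 0.22 and 0.16. These medians are not on an even footing. Cycling cells were picked by Mki67 and Top2a, and both were highest in the G2/M-rich bin of each library. High ratios of G2 and mitosis genes were thus partly set by the gate.

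Between the libraries, the clustered histone genes were lower in CD8 cells labelled Dapl1-KO, in both states. The log2 ratio of the sums (Dapl1-KO over WT label) was -0.37 (-0.38 to -0.36) in cycling and -0.39 (-0.40 to -0.37) in other CD8 cells, the levels being those given above. In cycling CD8 cells 24 of 44 members that entered were at least 20% lower under the Dapl1-KO label and 1 was at least 25% higher, where 9.42% of all genes were lower and 8.77% higher. In other CD8 cells 18 of 30 were lower and 1 higher, beside 10.7% and 15.7% of all genes. The median log2 ratio of members was -0.37 and -0.39, and that of all genes was 0.01 and 0.04.

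The difference was uneven over the members. Hist1h2ap was at 673.9 against 1173.8 CPM in cycling cells (log2 -0.80, -0.82 to -0.78) and at 94.88 against 181.1 CPM in other CD8 cells (log2 -0.93). Hist1h2ae was at 250.6 against 348.6 CPM and Hist1h2bj at 71.91 against 112.2 CPM. Hist1h2ai and Hist1h2br, chosen after their values were seen, had the lowest ratios among cycling CD8 cells, with log2 -0.98 for both. By contrast Hist1h1b was at 458.3 against 470.5 CPM, Hist1h4d at 321.7 against 307 CPM and Hist1h2bc at 108.7 against 104.8 CPM. Hist3h2a was the member higher under the Dapl1-KO label, at 26.47 against 19.58 CPM.

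By family, the log2 ratio of the sums in cycling CD8 cells was -0.64 for H2A (-0.66 to -0.62), -0.40 for H3, -0.33 for H2B, -0.17 for H1 and -0.11 for H4. In other CD8 cells it was -0.69 for H2A, -0.43 for H1, -0.35 for H3, -0.14 for H4 and -0.03 for H2B. H2A was the lowest in both states. This rank rests largely on Hist1h2ap, whose level as that of 1 gene is uncertain. Hist1h2ap gave 37536 of 59104 H2A UMIs in cycling CD8 cells labelled WT and 34677 of 60999 in those labelled Dapl1-KO. In other CD8 cells it gave 6887 of 11957 and 4261 of 8725. In cycling CD8 cells 6 of 20 G1/S genes and 3 of 20 G2 and mitosis genes were at least 25% higher under the Dapl1-KO label. None of either list was at least 20% lower, and the rest lay within the limits. Over all genes the shares were 8.77% higher and 9.42% lower. Slbp was at 124.7 against 100.3 CPM. The part of proliferation in the library difference was not tested.

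Sex signature and tumour transcripts move with the label, so values within 1 signature are given. Among cycling CD8 cells with Y-linked and no Xist UMIs, the sum was 4703.1 CPM under the WT label (93 cells) and 3495.0 CPM under the Dapl1-KO label (1313 cells), a log2 ratio of -0.43 (-0.45 to -0.40). Hist1h2ap was at 1303.7 and 689.9 CPM there (log2 -0.92). In other CD8 cells of that signature the sums were 1198.9 CPM (557 cells) and 1064.7 CPM (2816 cells), a log2 ratio of -0.17 (-0.21 to -0.13), which is smaller than the -0.39 over all such cells, and that of Hist1h2ap was -0.62. Inside the WT library, Y-linked over Xist cells gave a log2 ratio of 0.01 in cycling and of -0.31 in other CD8 cells. Without the cells rich in tumour or macrophage markers (19 of 825 and 52 of 1446) the sums in cycling cells were 4663.7 and 3675.0 CPM and the log2 ratio was -0.34.

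In the other classes the library ratio was less uniform. Cycling regulatory T cells had a log2 ratio of -0.02 (-0.05 to 0.01), with 11 of 50 members lower and 13 higher, beside 27.5% and 14.9% of all genes. Other measures of the same cells were lower under the Dapl1-KO label, with a median share of a cell's UMIs of 0.333% against 0.606%, a median of 6.5 against 9 members per thinned cell, and a thinned log2 ratio of -0.24. Without marker-rich cells, 4 of 108 and all under the WT label, it was -0.22. The 7 macrophage markers looked for summed to 410.5 CPM under the WT label and 17.2 under the Dapl1-KO label in these cells. Other regulatory T cells had -0.45, with 17 of 28 lower and none higher (24.5% and 8.58%). CD4 cells had -0.54 in cycling and -0.45 in other cells, with 37 of 52 and 17 of 30 lower (34.1% and 19.3%) and 2 and 1 higher (24.5% and 17.6%). In cycling CD4 cells macrophage markers summed to 824.9 CPM under the WT label (7 of 7 counted) and 11.6 under the Dapl1-KO label (4 of 7), and without marker-rich cells the ratio was -0.59. NK cells had 0.28 in cycling and -0.30 in other cells, with 20 of 52 and 15 of 32 lower (44.4% and 21.6%) and 18 and 3 higher (28.5% and 14.4%). The cycling NK ratio turned to -0.18 after thinning, where 4 and 6 cells were left, and was 0.11 with either cycling gene enough. Differences between classes in these ratios were not tested.

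Of the 26 members that entered in all 6 library comparisons of CD8, regulatory T and CD4 cells, 8 were lower under the Dapl1-KO label by any amount in all 6, beside 9.81% of the genes that entered in all 6: Hist1h2ab, Hist1h2ae, Hist1h2ap, Hist1h2bj, Hist1h2br, Hist1h3a, Hist1h3e and Hist1h3f. For Hist1h2ap the log2 ratio was -0.33 in cycling and -0.89 in other regulatory T cells and -0.73 and -1.13 in CD4 cells. For Hist1h3f, chosen after its values were seen, it was -0.41 and -0.66 in regulatory T cells and -1.16 and -1.42 in CD4 cells. For Hist1h2ae it ranged from -0.05 in cycling regulatory T cells to -1.03 in other CD4 cells. With 1 library per label, library preparation and genotype cannot be told apart in these ratios, and cells were split by sex signature only in the CD8 gate.

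**Figure D5:**
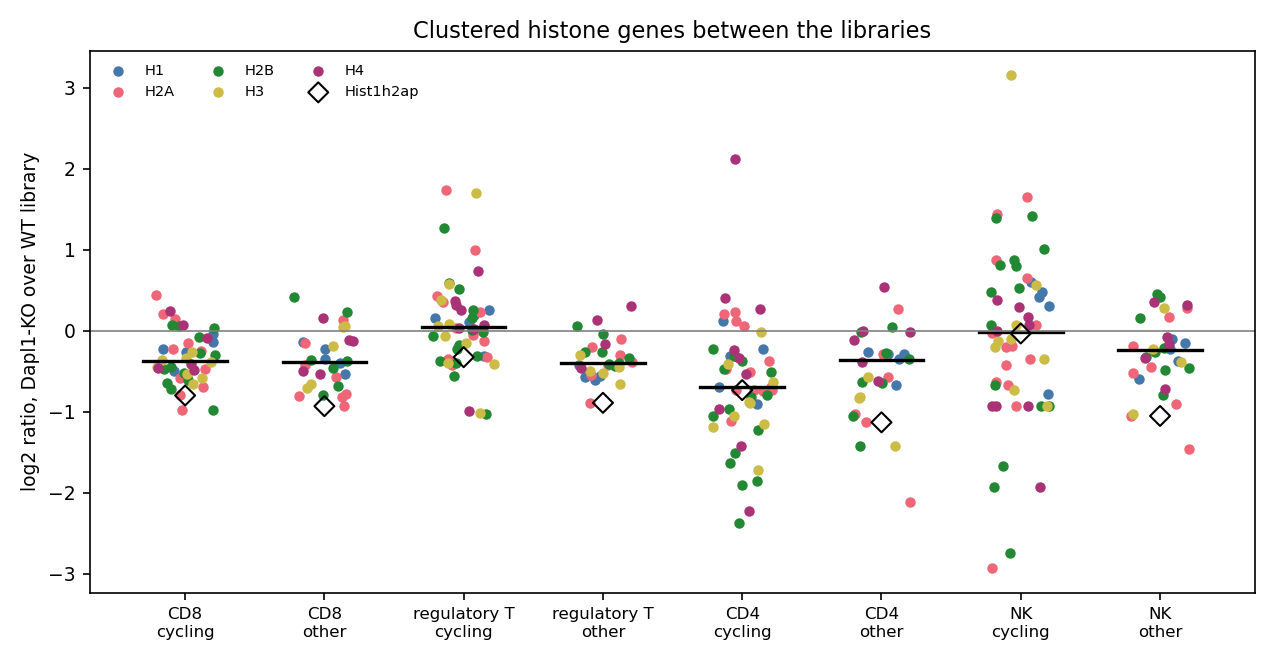
Log2 ratio of the library labelled Dapl1-KO over that labelled WT (vertical) for each clustered histone gene that entered, in cycling and other cells of the 4 classes, with dots coloured by family, a bar for the median over members and a diamond for Hist1h2ap. In CD8 cells the medians are -0.37 and -0.39 with Hist1h2ap at -0.80 and -0.93, and the spread is widest in cycling CD4 and NK cells, which are few.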

How the data were processed

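For each library of sorted tumour leukocytes the authors deposited a matrix of raw UMI counts, genes by barcodes, that were not scaled. Cell Ranger 5.0.0 and the builds mm10 and GRCm38 are named in the submitters' processing notes. The sources used here do not give how reads that match several genes were treated. The authors' deposited count matrices hold 16673 barcodes (154408101 UMIs, WT label) and 19662 barcodes (206322042 UMIs, Dapl1-KO label), each with at least 500 UMIs.

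Of barcodes in both libraries only the copy with at least 2 times the UMIs of the other was kept, which dropped 6004 and 7149. Filters of 500 or more genes and of no more than 10% mitochondrial UMIs left 9865 and 11156 cells. Scrublet (scanpy 1.11.5) called 0 doublets by its automatic threshold, so the top scores at a rate of 0.8% per 1000 cells were removed, ties included (778 and 1068 cells). Gates used UMIs of marker genes. The CD8 gate took Cd8a or Cd8b1 and a Cd3 gene, with no Cd4 or Foxp3. The regulatory T gate took Foxp3 and a Cd3 gene, with no Cd8a or Cd8b1. The CD4 gate took Cd4 and a Cd3 gene, with no Foxp3, Cd8a or Cd8b1. The NK gate took Ncr1 or Klrb1c, with no Cd3d, Cd3e, Cd3g, Cd4, Cd8b1 or Foxp3. In none of these gates fell 33.9% and 28.2% of cells. UMIs were summed per library, class and state and divided by the total. Shares have exact Clopper-Pearson intervals, and ratios exact conditional binomial intervals, at 95%. A count of 0 allows 3 counts. Genes entered at a mean of 5 CPM, and the limits were 2-fold between states and, between libraries or bins, 25% higher or 20% lower. The members, lists and polyadenylated genes were chosen with earlier results of these data known. Named were the 12 members with the highest mean CPM over cycling CD8 cells, the highest of each family and cluster, every member that entered but was not 2-fold higher in both libraries, and up to 4 genes of each list by ratio. Others named are said to be picked after their values were seen. On simulated counts for the CD8 comparison (8005 and 7987 genes) all genes raised or lowered 4-fold were called (100%) and 0% of unchanged genes were. Intervals covered 93.1% and 95.1% of true ratios. These counts were independent draws from pooled levels, which is what the intervals assume, with no clumping of UMIs in single cells. The simulation thus checks the calculation and not how well the intervals hold for these cells. Alternatives were all barcodes, no doublet removal, another cycling rule, other reference cells, thinning, mean over cells, other limits, leaving out cells of the other sex signature, cells rich in tumour or macrophage markers (over 0.1% of UMIs) or Hist1h2ap. Python 3.11.15, numpy 2.4.6, scipy 1.17.1, pandas 2.3.3 and matplotlib 3.10.9 were used.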

Additional observations from a re-analysis of the deposited data

Results flagged for a closer look

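For 3 members known to make polyadenylated messages, the ratio of cycling over other cells had opposite signs between libraries or classes, with counting intervals that did not cross 0. These differences were not tested. Each of the log2 ratios below is cycling over other cells.

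Hist1h1c had a log2 ratio of 0.30 in regulatory T cells labelled Dapl1-KO, against -0.32 in regulatory T cells labelled WT and -0.19 in CD8 cells labelled Dapl1-KO. The 5 cells with most Hist1h1c UMIs held 18.4% of 560 UMIs in cycling regulatory T cells labelled Dapl1-KO and 15.2% of 533 in those labelled WT.

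Hist1h2bc had a log2 ratio of -0.43 in regulatory T cells labelled WT, against 1.24 in regulatory T cells labelled Dapl1-KO, 0.86 in CD8 cells labelled WT and 1.09 in CD4 cells labelled WT. In cycling regulatory T cells the 5 cells with most Hist1h2bc UMIs held 49.5% of 374 UMIs under the Dapl1-KO label and 37.9% of 169 under the WT label.

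Hist3h2a had a log2 ratio of -1.60 in regulatory T cells labelled WT, against 0.52 in regulatory T cells labelled Dapl1-KO and 1.10 in CD4 cells labelled WT. In cycling regulatory T cells the top 5 cells held 52.0% of 98 Hist3h2a UMIs under the Dapl1-KO label and 34.4% of 32 under the WT label. The 32 UMIs under the WT label came from 25 cells with at most 3 in any cell, so the values that rest on few cells are those under the Dapl1-KO label.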

How the results depend on the processing

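No paired analysis was possible because each label has 1 library. Of the alternatives run, 93 counts of members at least 2-fold higher stayed within 1.5 times and 9 moved beyond, while 43 summed log2 ratios stayed within their counting interval, 64 moved out of it and 3 changed sign. No ratio of cycling over other cells changed sign; the 3 that did were library ratios of cycling regulatory T or NK cells. Values below are log2 ratios of the summed level, cycling over other cells, WT then Dapl1-KO label. With all deposited barcodes they were 1.59 and 1.57 (CD8), 1.86 and 2.19 (regulatory T) and, for CD4 labelled Dapl1-KO, 2.21. With no doublet removal they were 1.61 and 1.63 (CD8), 2.26 (regulatory T, Dapl1-KO) and 1.66 and 2.28 (NK). With Mki67 or Top2a enough for cycling they were 1.35 and 1.35 (CD8), 1.49 and 1.91 (regulatory T), 1.68 and 1.42 (CD4) and 0.41 and 0.84 (NK), and NK counts of members were 10 and 15. Thinned to 3000 UMIs they were 1.93 and 1.90 (CD8), 2.31 and 2.57 (regulatory T), 2.33 and 2.42 (CD4) and 2.85 and 2.88 (NK, 4 and 6 cycling cells). As means over cells they were 1.71 and 1.73 (CD8), 2.21 and 2.24 (CD4) and 2.24 (NK, Dapl1-KO). Without cells of the other sex signature, regulatory T labelled WT gave 1.97. With other cells limited to those with Pdcd1, Icos or Tnfrsf9, CD8 labelled WT gave 1.62. At a mean of 20 CPM the members at least 2-fold higher numbered 15 and 11 (CD8), 21 and 23 (regulatory T), 31 and 22 (CD4) and 25 (NK, Dapl1-KO).

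The library ratio in cycling cells was -0.32 (CD8) with all barcodes. It was 0.001 (a changed sign) in regulatory T cells with no doublet removal. With either cycling gene it was -0.35 (CD8), -0.072 (regulatory T), -0.60 (CD4) and 0.11 (NK). Thinned it was -0.34 (CD8), -0.24 (regulatory T), -0.38 (CD4) and -0.18 (NK, a changed sign). Without the other sex signature it was -0.42 (CD8) and -0.087 (regulatory T). As a mean over cells it was -0.32 (CD8), -0.10 (regulatory T) and -0.39 (CD4).

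Chosen after seeing the data were 3 alternatives. Other cells with neither Mki67 nor Top2a gave 1.65 (CD8, Dapl1-KO), 2.40 (regulatory T, Dapl1-KO) and 2.54 (CD4, WT). Leaving out cells rich in tumour or macrophage markers gave 1.71 and 1.74 (CD8) and 2.04 (regulatory T, WT), and library ratios of -0.34 (CD8) and -0.22 (regulatory T). Leaving out Hist1h2ap gave 1.42 and 1.49 (CD8), 1.61 and 2.11 (regulatory T), 2.17 and 2.08 (CD4) and 1.46 and 2.09 (NK), and library ratios of -0.25 (CD8), 0.082 (regulatory T, a changed sign) and -0.48 (CD4). The causes were not tested. Cycling CD4 and NK cells are few, poly(A) priming misses an unmeasured part of stem-loop messages, and near-identical copies limit values of single genes.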
